A study of Mus musculus with 6 samples.

Results

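AB22 is an established mouse malignant mesothelioma line, and the RNA described here came from AB22 cells that carry a control hairpin, shCTRL. The members are the 3 shCTRL RNA libraries, replicates A, B and C, of the 6 RNA libraries of the series, chosen by their label alone. The other 3 libraries carry a hairpin against Hmgb1 and are not compared here. Cells of both groups were infected with a pTRIPZ lentivirus at a multiplicity of infection of 20 and selected with 4 µg/mL puromycin. They were grown in RPMI medium with 10% fetal bovine serum at 5% oxygen and used 7 to 10 days after 1 µM doxycycline had switched the hairpin on, so the shCTRL cells also carried an induced hairpin, a lentiviral insert, a drug resistance gene and doxycycline. All RNA was taken from cells synchronised in G1, the phase before DNA replication, by a method that the labels do not describe. No asynchronous or untransduced AB22 cells and no normal mesothelium were analysed here, so the levels have no outside reference. The labels list the 3 libraries as biological replicates of 1 line, referred to as cultures below. The sources used here do not say whether each came from its own infection. The mean ± SD over 3 therefore measures the spread between these cultures only.

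Mesothelium is the flat cell layer that lines the pleura and peritoneum, and mesothelioma is the tumour that arises from it. Mesothelial cells are of mesodermal origin and carry both epithelial traits (keratins, mesothelin) and mesenchymal ones (vimentin), and mesotheliomas range from epithelioid to sarcomatoid forms in which the mesenchymal traits dominate. The tumours are known for inactivation of CDKN2A, BAP1 and NF2, for their dense matrix and for the cytokines they release.

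Levels are RPKM, read numbers divided by gene length and library size, which lets genes be set beside each other. The table held 12134 gene symbols, of which 10966 were nuclear protein coding genes. The reads on those genes, recovered from the steps between the deposited values, came to 13854488 in culture A, 12867332 in culture B and 23425330 in culture C. A single read on a 2 kb gene was worth 0.0365, 0.046 and 0.0196 RPKM, so counting error was smallest in culture C. All 3 cultures listed a similar number of genes at 1 RPKM or more, namely 10888, 10829 and 10885. By the mean of the cultures 10890 genes reached 1 RPKM, 5413 reached 10, 593 reached 100 and 41 reached 1000. The median gene stood at 8.23 RPKM, the 90th percentile at 52.4 and the 99th at 475. Orders of cultures below are on the deposited scale. When each library was rescaled to an equal sum of RPKM, culture B fell and culture C rose for the median gene, as given with the gene lists below, so smaller gaps between those cultures change order by construction. Culture B was then the lowest for 5139 of the 5413 genes of at least 10 RPKM, and culture C the highest for 4749. A gene with those places on the rescaled scale is therefore not set apart by them.

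The 6 marker genes given for these cells were all present, with 3 of them among the most abundant coding RNAs or close to them. Acta2, the smooth muscle actin of contractile and myofibroblast-like cells, stood at 3284, 4014 and 2905 RPKM in cultures A, B and C (3401 ± 563, SD, n = 3) and was the 4th coding gene by level. Vim, the mesenchymal intermediate filament vimentin, stood at 1744, 1932 and 2176 RPKM and was the 7th. Efemp1, a fibulin of the extracellular matrix found in mesothelium, stood at 439, 519 and 469 RPKM. On the deposited scale the order of the cultures was not the same in these 3 genes, and no culture was more than 1.38-fold above another in any of them. After rescaling to equal sums all 3 had the order C, A, B. The range was wider for Vim, at 1822, 1464 and 3009 in cultures A, B and C, and for Efemp1, at 459, 394 and 649. It was not wider for Acta2, at 3431, 3041 and 4017. Il1rl1, the receptor for interleukin 33, stood at 294, 288 and 278 RPKM, a coefficient of variation (CV, SD over mean) of 2.78%. Csf1, the growth factor of macrophages, stood at 119, 94.7 and 114 RPKM. Msln, the mesothelial surface protein mesothelin, stood at 60.9, 57.8 and 82.8 RPKM (67.2 ± 13.6), above 92.5% of listed genes but far below the cytoskeletal markers. Culture C was the highest for Msln, and cultures A and B lay close together.

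A wider list of mesothelial genes could be read only in part, since 8 of 22 had a row in the table, so the label was checked on those 8 alone. Efemp1 (476 ± 40.6 RPKM), Msln, Gas1 (47.8 ± 8.22), a membrane protein that restrains growth, Pdpn (43.4 ± 4.80), which encodes podoplanin, and Tbx18 (13.4 ± 0.551), a transcription factor of the embryonic mesothelium, were above 10 RPKM. Bnc1, which encodes basonuclin, was at 3.98 ± 0.399. Krt7, a simple keratin, was at 0.375 ± 0.0800 on 17 to 30 reads per culture, and Cd200 was at 0.587 ± 0.163. Wt1, Upk3b, Upk1b, Lrrn4, Krt8, Krt18, Krt19, Calb2, Gpm6a, Muc16, Aldh1a2, Rspo1, Nkain4 and Prg4 had no row in the table used here. The sources used here do not give the rule by which genes entered the table, and 11098 of 21911 nuclear coding symbols of GENCODE M21 (50.7%) had no row. Mitochondrial mt-Co2 and mt-Atp6 also had none, beside a mt-Co1 of 5514 RPKM, so a missing row was not read as a missing RNA.

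Those leukocyte, endothelial and other lineage markers that had a row were below the all-gene median of 8.23 RPKM, Cd14 only by a little. Of 18 leukocyte markers 3 had a row, with Cd14, a lipopolysaccharide co-receptor, at 7.00 ± 0.836 RPKM, Lyz2 at 2.28 ± 0.298 and Mpo at 0.538 ± 0.103. The pan-leukocyte gene Ptprc and the macrophage genes Adgre1, Cd68 and Csf1r had no row. Of 12 endothelial markers only Kdr had one, at 1.74 ± 0.916 RPKM, and of 17 markers of erythroid, muscle, neural, liver and other lineages 3 had one, among them Snap25 (1.85 ± 0.271) and Acta1 (0.745 ± 0.289). Cdh1, the epithelial cadherin, was at 0.514 ± 0.196 RPKM, and Epcam, Cldn3, Cldn4, Cldn7, Krt5 and Krt14 had no row. In bulk RNA a low level cannot be told apart as a few cells with much of the RNA or many cells with little. Xist, and every gene of chromosome Y, had no row, whereas the X-linked Ddx3x stood at 184 ± 45.6 and Eif2s3x at 21.9 ± 1.84 RPKM.

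Structural RNAs, the translation machinery and the cytoskeleton took most of the top of the ranking. The 10 highest genes were AY036118, Rn7sk, Rn18s-rs5, Rmrp, Rpph1, Actb, Eef1a1, mt-Co1, Lgals1 and Acta2. AY036118 and Rn18s-rs5, symbols that lie in or copy the ribosomal RNA repeat, reached 102522 and 29323 RPKM on average but differed widely between cultures, as described below. Rn7sk, the RNA that holds the elongation factor P-TEFb inactive, was at 74303, 89069.7 and 53176 RPKM in cultures A, B and C. Rmrp and Rpph1, the RNAs of the ribonucleases MRP and P, were at 22337 ± 4995 and 15996 ± 3749 RPKM. For these 3 polymerase III transcripts culture B was the highest on the deposited scale, though for none of them after rescaling to equal sums, and the spread was under 1.7-fold. Malat1, a nuclear long non-coding RNA, was at 1329.8 ± 326.

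Among nuclear coding genes Actb, the cytoplasmic actin, was first at 7490.3, 7539 and 6658 RPKM (7229 ± 496), followed by Eef1a1, the factor that brings aminoacyl-tRNA to the ribosome, at 5506, 6829 and 4440.1 (5592 ± 1197). Lgals1, which encodes the secreted lectin galectin-1, was the third at 3728, 4489 and 3196 RPKM, and S100a6, a calcium-binding protein, was the fifth at 2551, 2644 and 2048. Culture C was the lowest for each of these 4 genes and culture B the highest, an order that reversed after rescaling to equal sums. The rest of the 20 highest coding genes, besides Acta2 and Vim, held 10 ribosomal protein genes led by Rplp1 (2374 ± 425), with Rack1, the ribosome-bound scaffold, Ftl1, the ferritin light chain, Thbs1, which encodes thrombospondin-1, and Cst3, which encodes cystatin C. Thbs1 was at 1260.1, 1202 and 1198 RPKM, a 1.05-fold range. The plot of the highest genes shows that most of the 20 coding genes had culture C at the low end on the deposited scale.

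**Figure D1:**
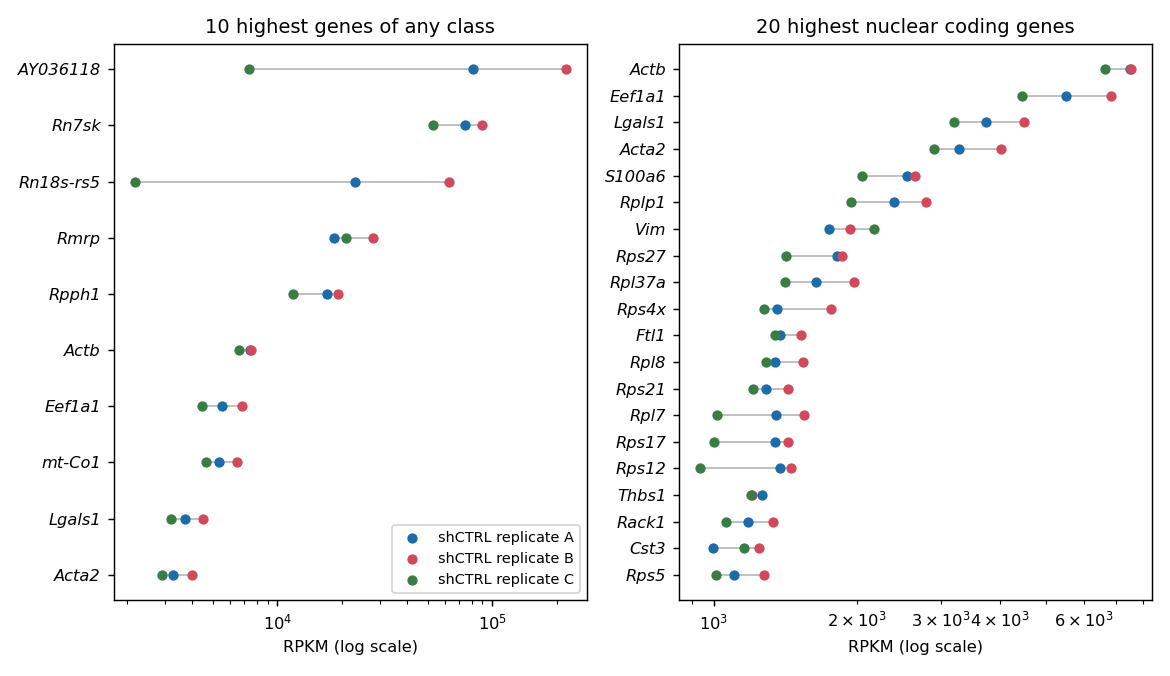
RPKM on a log axis of the 10 highest genes of any class (left) and the 20 highest nuclear coding genes (right), with 1 point for each of the 3 shCTRL cultures and a line from the lowest to the highest. AY036118 and Rn18s-rs5 span 29.6-fold and 28.9-fold, whereas Actb spans 1.13-fold and Acta2 1.38-fold.

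Of the 100 highest genes 80 were nuclear coding, 5 mitochondrial and 15 of other classes, and 42 were cytoplasmic ribosomal protein genes. The hundredth gene stood at 553 RPKM and the next at 542. The single libraries shared 84 of their own 100 highest genes, and pairs of libraries shared 91 (A and B), 90 (A and C) and 87 (B and C). The 10 highest genes of a culture held 40.5%, 54.9% and 26.3% of its summed RPKM in cultures A, B and C (40.5% ± 14.3). Counted over nuclear coding genes alone, the 10 highest held 9.71%, 10.2% and 8.53% (9.48% ± 0.852) and the 100 highest held 30.4%, 31.8% and 28.3% (30.1% ± 1.76). The share held by the highest coding genes was thus similar in the 3 cultures. AY036118 and Rn18s-rs5 took 9.03%, 20.9% and 0.915% of the reads on listed genes in cultures A, B and C. Rn7sk, Rmrp and Rpph1 took 3.46%, 3.65% and 2.95%.

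Promoters of the most abundant coding genes were read from RefSeq (GRCm38.p6, 250 bases before to 50 after the start), which had 84 promoters for 74 of the 100 highest coding genes and 10970 for 8562 of the 10966 listed ones. TATAAA, searched on both strands, lay in 16 of the 84 promoters of the 100 highest and in 6.72% of all. Within the 50 bases before the start the shares were 5.95% and 1.52%, which is 5 promoters of the high genes. They are shown because they are the abundant genes with these letters near the start, at differing distances from it. None of the 70 promoters of cytoplasmic ribosomal protein genes had TATAAA there. The stretch of each covers positions -60 to -1 from the RefSeq start, with TATAAA in capitals: Vim at chr2:13574251-13574310 on the plus strand, Anxa2 at chr9:69453623-69453682 (plus), Eef2 at chr10:81176571-81176630 (plus), S100a4 at chr3:90603710-90603769 (plus) and Anxa1 at chr19:20390672-20390731 (minus).
Vim: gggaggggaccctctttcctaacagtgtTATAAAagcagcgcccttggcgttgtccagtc
Anxa2: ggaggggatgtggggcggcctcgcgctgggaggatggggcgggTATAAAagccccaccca
Eef2: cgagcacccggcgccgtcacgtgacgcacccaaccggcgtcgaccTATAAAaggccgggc
S100a4: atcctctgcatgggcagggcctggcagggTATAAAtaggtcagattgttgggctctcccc
Anxa1: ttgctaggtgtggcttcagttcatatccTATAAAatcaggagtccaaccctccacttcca
These genes encode vimentin, annexin A2, elongation factor 2, the calcium-binding protein S100A4 and annexin A1, with levels of 1951, 1028, 595, 542 and 503 RPKM. CCAAT lay in 38.1% of the high promoters and 38.3% of all, and GGGCGG in 61.9% and 64.0%, both strands searched. A C followed by 4 or more pyrimidines within the first 20 bases of the transcript, searched on the transcript strand, was found for 47.1% of the promoters of ribosomal protein genes (33 of 70), 36.9% of the 100 highest and 24.5% of all. Without ribosomal protein genes, a cut added after the data were seen, the share among the 100 highest was 27.9%. A match is a run of letters in this window and not a measured site.

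The contractile and mesenchymal cytoskeleton was expressed strongly and widely. Of 25 genes on that list 23 had a row, 15 of them were at 100 RPKM or more, and their median was 241 RPKM beside 8.23 for all genes. Tpm4, a tropomyosin, was at 580.1, 665 and 458 RPKM in cultures A, B and C. Flna, the actin cross-linker filamin A, was at 481, 594 and 585. Vim had another order, with culture C the highest, and after rescaling to equal sums culture C was the highest for all 3. Vcl, Myl9 and Tpm1 stood between 441 and 478 RPKM. At the other end Cnn1, calponin 1, was at 4.27 ± 1.40 and Tagln, transgelin, at 1.74 ± 0.403 RPKM, although both are smooth muscle genes like Acta2, which was at 3401. Myh10 and Des had no row.

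The CArG box, the binding motif of serum response factor, was searched on both strands after the levels had been seen. It lay in 4 of the 27 promoters found for 22 listed genes of that list (14.8%) and in 1.28% of all promoters. The 4 are shown with the box in capitals, since they are the cytoskeletal genes that carry it. Vcl at chr14:20929148-20929207 (plus) covers positions -250 to -191, Myl9 at chr2:156775278-156775337 (plus) -186 to -127, Cnn2 at chr10:79988519-79988578 (plus) -81 to -22 and Myl6 at chr10:128493025-128493084 (minus) -75 to -16.
Vcl: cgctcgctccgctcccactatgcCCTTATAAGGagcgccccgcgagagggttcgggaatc
Myl9: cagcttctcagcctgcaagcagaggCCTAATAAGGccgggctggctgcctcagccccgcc
Cnn2: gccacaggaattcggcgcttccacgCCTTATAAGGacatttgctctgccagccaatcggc
Myl6: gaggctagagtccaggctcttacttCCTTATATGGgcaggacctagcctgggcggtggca
They encode vinculin, a myosin regulatory light chain, calponin 2 and a myosin essential light chain, at 460.1, 441, 329 and 314 RPKM. No binding was measured, and genes without the letters in this window may carry them elsewhere.

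S100 proteins and annexins, calcium-binding proteins of the cytoplasm and membrane, had a median of 162 RPKM over 14 listed genes of 18. S100a6 led, followed by Anxa2 (1028 ± 138), S100a10 (600.0 ± 107), the partner of annexin A2, and S100a4 (542 ± 76.3). The inflammatory pair S100a8 and S100a9 had no row.

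Matrix genes were abundant. The collagens had a median of 63.6 RPKM with 17 of 18 listed, and 8 were at 100 or more. Col1a2, a chain of fibrillar collagen I, was at 812, 656 and 1063 RPKM in cultures A, B and C, and its partner Col1a1 at 370.2, 184 and 423. Culture B was the lowest for both chains, with Col1a1 below its level in cultures A and C by more than the gap between those cultures. It was also the lowest after rescaling to equal sums, but so it was for 5139 of 5413 genes. On the deposited scale Col5a2 (623, 639.6 and 539 RPKM) and Col3a1 (466, 439.6 and 434) did not have culture B as the lowest. Chains of the network collagens lay between 8.73 ± 2.31 (Col4a2) and 43.0 ± 3.07 (Col8a1), and the fibrillar chains Col5a3 (14.2 ± 0.930) and Col11a1 (4.46 ± 1.09) were as low or lower.

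Of 41 other matrix genes 34 had a row, with a median of 53.6 RPKM. After Thbs1 came Thbs2, its homologue, at 786, 614 and 1084 RPKM, Mgp, a matrix inhibitor of calcification, at 511, 816 and 733, and Sparc, which binds collagen, at 586, 456 and 622. Culture B was the lowest for Thbs2 and Sparc, and culture A for Mgp, on both scales. Most genes had culture B as the lowest after rescaling to equal sums. Fn1, which encodes fibronectin, was at 498 ± 49.3. Postn, which encodes periostin, was at 0.162 ± 0.0190 and Lum, lumican, at 0.526 ± 0.190, both usual products of fibroblasts. Matrix proteases and their inhibitors had a median of 60.3 RPKM over 29 of 35 genes and were led by an inhibitor, Cst3 (1132 ± 127), the collagen chaperone Serpinh1 (723 ± 59.5), the cross-linking enzyme Lox (445 ± 76.2) and Serpinf1 (316 ± 24.0). Mmp9 was the lowest listed member at 1.86 ± 1.06.

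Surface adhesion genes were a mixed group. Integrin subunits had a median of 8.59 RPKM over 12 of 18, close to that of all genes, with Itgb1 (284, 266 and 248 RPKM), the common beta chain, and Itgb5 (142 ± 4.59) well above Itgav (31.7 ± 11.2) and Itgb7 (22.9 ± 3.86). Among cadherins and junction genes 13 of 26 had a row. Ctnnb1, which encodes beta-catenin, was at 150.3, 167 and 162 RPKM and Ctnna1, alpha-catenin, at 117 ± 14.3, whereas the classical cadherins Cdh2 (0.537 ± 0.130) and Cdh1 were both under 1 and Cdh3 was at 7.54 ± 1.66. Gja1, the gap junction protein connexin 43, was at 32.3, 12.1 and 41.9 RPKM, with culture B the lowest. Sdc4, a heparan sulfate proteoglycan of focal adhesions, was at 685, 733 and 627 RPKM, and Cd44, the hyaluronan receptor, at 134, 120.0 and 125. Both differed little between cultures.

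Secreted signals were led by Mif, macrophage migration inhibitory factor, at 554, 693 and 584 RPKM. Manf (169.8 ± 8.94), a factor released under endoplasmic reticulum stress, Hdgf (132 ± 8.11), Csf1 and Vegfa (103 ± 12.8), the endothelial growth factor, followed. Of 45 cytokine and growth factor genes 30 had a row, with a median of 8.48 RPKM. Il6 was at 1.33 ± 0.773, and Il1a, Il1b, Tnf, Csf2 and Csf3 had no row. The chemokine list had 10 of 28 genes and a median of 7.91 RPKM. Ccl7, a monocyte attractant, was at 93.8, 55.5 and 40.7 RPKM, and Ccl2, its neighbour on chromosome 11 with a like function, at 54.4, 53.6 and 26.6. Culture A was the highest for both on either scale, while the lowest culture for Ccl7 became B after rescaling to equal sums. Cxcl12 was at 24.1 ± 6.59 and Cx3cl1 at 15.8 ± 5.02.

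Receptors showed a few high members over a moderate group. Cytokine receptors had a median of 12.6 RPKM with 25 of 35 listed. After Il1rl1 came Tnfrsf12a, the receptor for TWEAK, at 279.7, 226 and 178 RPKM, Tgfbr2 (86.7, 84.9 and 108), the type 2 receptor for TGF-beta, and its co-receptor Tgfbr3 (34.2 ± 9.46). The co-receptor of Il1rl1, Il1rap, was at 5.02 ± 1.56 and the ligand Il33 at 4.02 ± 1.17 RPKM, so the receptor was far above both. The ligand Csf1 was listed without its receptor Csf1r. Receptor tyrosine kinases had a median of 13.8 RPKM over 18 of 32. Axl, a receptor for GAS6, stood apart at 299, 323 and 355 RPKM, followed by the collagen receptor Ddr2 (46.8 ± 3.00), Pdgfrb (33.9 ± 8.93) and Igf2r (29.7 ± 5.70). Met (21.6 ± 2.83) and Egfr (15.9 ± 0.543) were lower.

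**Figure D2:**
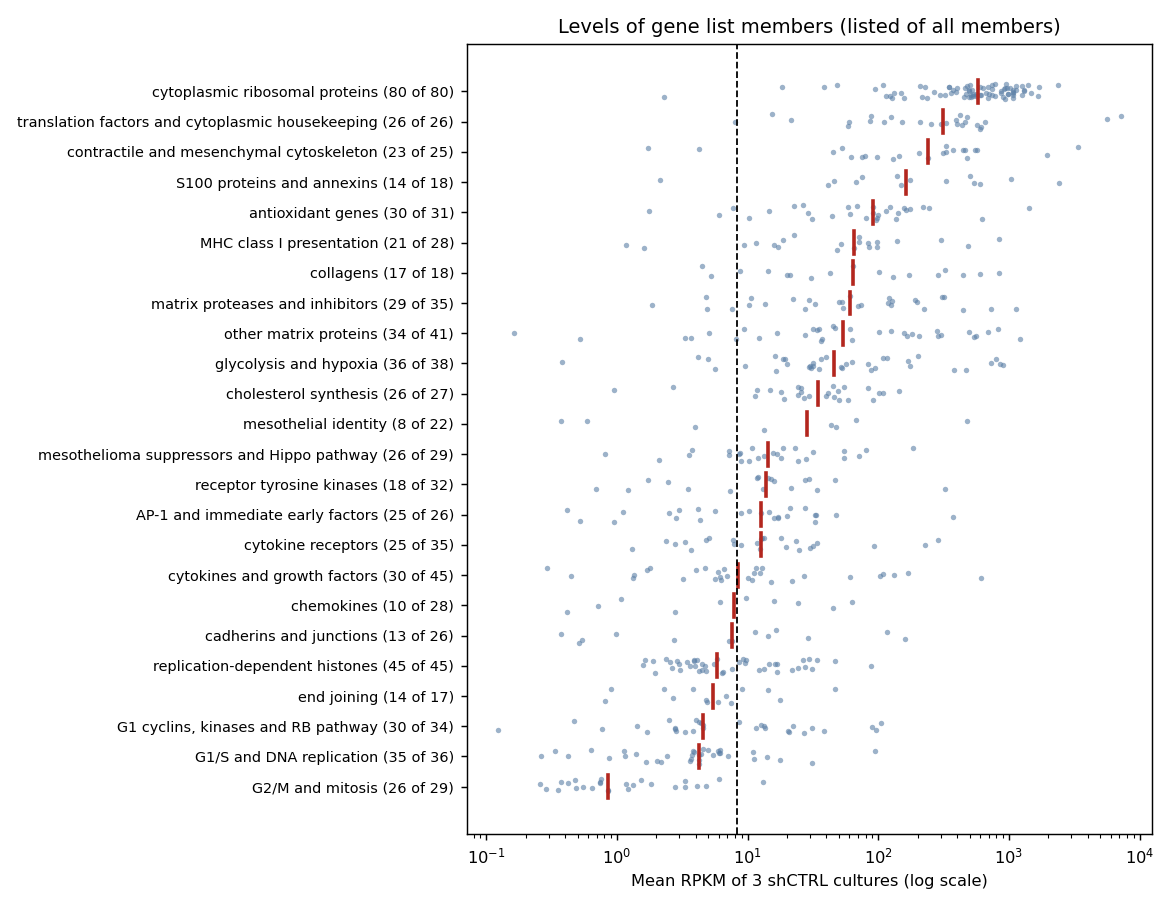
Mean RPKM over the 3 shCTRL cultures, on a log axis, of the listed members of a selection of gene lists, with 1 point per gene, a red bar at the median of each list and a dashed line at the all-gene median of 8.23. Ribosomal protein genes have the highest median, 578, and the G2/M genes the lowest, 0.849; numbers beside a name give listed members of all members.

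Genes known as tumour suppressors in mesothelioma and genes of the Hippo pathway, which restrains the co-activators YAP and TAZ, were mostly listed at moderate levels, 26 of 29 with a median of 14.4 RPKM. Ddx3x, an RNA helicase, was at 202, 133 and 218 RPKM, and Mob1a, a kinase adaptor, at 80.8, 80.2 and 80.4. Ankrd1, a target of YAP, was at 92.0, 79.7 and 42.5, with culture C the lowest. Nf2 (15.5 ± 2.84), Bap1 (12.0 ± 1.54) and Trp53 (10.8 ± 4.89) were all present. Trp53 had a 2.55-fold range with culture B the lowest, at 6.26 RPKM.

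Cdkn2a, which encodes the cell cycle inhibitors p16 and p19, had no row, nor had its neighbours Cdkn2b and Mtap. On chromosome 4 (GRCm38, GENCODE M21) Cdkn2a lies at 89274471 to 89294653 and Mtap at 89137122 to 89181081. They stood in a run of 39 coding genes without a row, from Hacd4 at 88396144 through the type I interferon cluster and Klhl9 to Zfp352, which ends at 90225702. The genes on either side were listed, Focad at 8.74 ± 0.148 RPKM and Elavl2 at 1.02 ± 0.0515, and further out Mllt3 at 5.00 ± 0.527 and Caap1 at 12.4 ± 2.48. Most genes of the run are interferon genes, and 50.7% of all coding symbols had no row. Whether the run reflects the state of the locus, silence of these genes or the entry rule of the table cannot be told apart from these values.

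By list median, genes of the G1 and S phases stood above those of mitosis. The G1 list had a median of 4.55 RPKM over 30 of 34, led by Cdk4 (94.4, 119 and 101 RPKM) and its partner Ccnd1 (92.2, 96.9 and 99.4), the kinase and cyclin that phosphorylate RB, then Ccng1 (90.1 ± 15.4) and Tfdp1 (38.7 ± 3.06). The inhibitor Cdkn1a was at 3.68, 2.65 and 7.24. The G1/S and replication list had a median of 4.23 over 35 of 36, with Pcna, the polymerase clamp, at 104, 102 and 77.5 RPKM, then Dut (31.0 ± 2.57), Orc6 (17.6 ± 3.76) and Rfc1 (14.1 ± 1.08). The G2/M and mitosis list had a median of 0.849 RPKM over 26 of 29, and 14 of the 26 were under 1. Anln was the highest at 14.8, 13.5 and 11.1, followed by Top2a (6.09 ± 0.724), Prc1 (4.84 ± 1.24) and Tpx2 (4.13 ± 1.38). Mki67 was at 1.53 ± 0.428, and Plk1 had no row. No cells of another phase were measured here, so these levels are not a measure of how complete the synchrony was.

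Chromatin genes were nearly all listed. The HMG proteins, architectural proteins of chromatin, were all listed, 15 of 15 and 9 of them above the all-gene median, led by Hmgn1 (141, 149.5 and 126 RPKM), Ssrp1 (57.3 ± 3.00), Hmgb1 (33.4, 45.5 and 31.9) and Ubtf (26.8 ± 3.46). These cells carried the control hairpin, and culture B was the highest for Hmgb1 on the deposited scale, culture C after rescaling to equal sums. Replacement histones, made throughout the cell cycle, had a median of 26.1 RPKM over 10 of 11, with H3f3b (106 ± 15.0), H3f3a (64.8 ± 9.61), H2afz (60.3 ± 7.05) and H1f0 (52.5 ± 4.84). The replication-dependent histones were lower, 5.88 over 45 of 45, led by Hist1h4d (79.9, 119 and 65.3) and Hist1h2bc (47.0 ± 8.40). Remodellers and chaperones had a median of 9.68 RPKM over 39 of 40, with the nucleolar chaperone Npm1 at 797, 853 and 584, Rbbp7 at 175 ± 6.57, Set at 122 ± 8.73 and Rbbp4 at 72.1 ± 9.79.

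DNA break repair genes were low to moderate. The end joining list had a median of 5.43 RPKM over 14 of 17 symbols, Shld1 and Shld2 being listed under older names, with the Ku subunits Xrcc5 (44.3, 54.0 and 42.4 RPKM) and Xrcc6 (17.7 ± 1.92) ahead of Xrcc4 (8.99 ± 1.79), and Lig4 at 0.812 ± 0.195. Homologous recombination and damage signalling had a median of 4.68 over 35 of 39, led by Parp1 (35.6 ± 2.66), Rpa1 (34.3 ± 4.19), Rpa3 (29.8 ± 3.64) and Nbn (18.3 ± 4.48). Brca1 was at 0.416 ± 0.139. Targets of p53 had a median of 4.75 over 29 of 30, with Ccng1, Ephx1 (59.6 ± 6.29), Phlda3 and Bax (40.0 ± 6.30) the highest.

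Transcription factors of mesenchymal and mesothelial cells had a median of 12.0 RPKM over 39 of 45. Id3, an inhibitor of basic helix-loop-helix factors, led at 266, 269 and 299.8 RPKM, followed by the homeobox factor Prrx2 (69.9 ± 5.35), Id2 (44.9 ± 4.17) and Id1 (61.5, 27.3 and 44.1 RPKM, with culture B the lowest). Among AP-1 and immediate early factors, 25 of 26 with a median of 12.7, Atf4, the factor of the integrated stress response, was far above the rest at 364, 404 and 349.8 RPKM. Klf6 (47.5 ± 5.08), Klf4 (33.5 ± 9.91) and Jund (32.9 ± 2.06) followed, and Fos had no row.

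Metabolic genes were high. The glycolysis and hypoxia list had a median of 45.8 RPKM over 36 of 38. Ldha, which makes lactate, was at 772, 923 and 981 RPKM, Pkm at 858 ± 193, Aldoa at 797 ± 25.8 and Tpi1 at 729.5 ± 92.8. The cells were grown at 5% oxygen, and no other oxygen level was measured. Antioxidant genes had a median of 91.0 over 30 of 31, with the ferritin chains Ftl1 (1378, 1526 and 1347) and Fth1 (596, 419 and 858), Prdx1 (243 ± 33.3) and Txn1 (219 ± 12.5). Culture B was the lowest for Fth1 on both scales, and the highest for Ftl1 on the deposited scale only. Most genes had culture B as the lowest after rescaling to equal sums. Cholesterol synthesis had a median of 34.7 over 26 of 27, led by the desaturase Scd2 (144 ± 41.4), Sqle (109 ± 8.25), Msmo1 (102 ± 23.4) and Cyp51 (91.3 ± 25.6).

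Genes by which immune cells recognise a tumour cell were well represented for class I and without a row for class II. Of 28 antigen presentation genes 21 had a row, with a median of 65.6 RPKM. The chaperones Calr (755, 948 and 827 RPKM) and Canx (303 ± 14.6), B2m, the light chain of class I molecules (463, 626 and 357), and the heavy chain H2-D1 (119, 152 and 144) were the highest. Culture B was the highest for Calr, B2m and H2-D1 on the deposited scale and the lowest for all 3 after rescaling to equal sums. H2-Aa, H2-Ab1, Cd74 and Ciita had no row. Among immune checkpoint and surface ligand genes 23 of 32 had a row, with Lgals1 first, then Ly6a (319.9, 406 and 381), which encodes Sca-1, Cd81 (355 ± 26.4) and Lgals3, galectin-3 (320.4 ± 20.7). H60b, a ligand of the activating receptor NKG2D, was at 195, 253 and 201. Cd274, which encodes PD-L1, was at 1.26 ± 0.377.

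Translation genes had the highest levels of any coding list. All 80 cytoplasmic ribosomal protein genes had a row, 75 were at 100 RPKM or more, and their median was 578, with Rplp1, Rps27 (1699 ± 247), Rpl37a (1673 ± 282) and Rps4x (1464 ± 259) first. Rpl24 (18.2 ± 3.33) was among the lowest. Housekeeping genes of translation and cytoplasm, 26 of 26, had a median of 315, with Hspa8 (655 ± 103) and Tmsb4x (612 ± 90.5) after Actb and Eef1a1. Mitochondrially encoded genes, 10 of 15, had a median of 450.1, and mt-Co3 was at 1.78 ± 1.30 beside 5514 for mt-Co1, a gene of the same respiratory complex. Ribosomal protein, histone and mitochondrial genes have near-identical copies elsewhere in the genome, so their levels depend on how the authors assigned such reads and are uncertain. Across the 39 lists, 27 had a median above that of all genes.

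The 3 cultures agreed closely across genes on the deposited scale. Over 11596 genes averaging 0.5 RPKM or more, Pearson's r of log2(RPKM + 0.1) was 0.979 for cultures A and B, 0.976 for A and C and 0.974 for B and C, and Spearman's rho was 0.979, 0.977 and 0.972. These are correlations across genes, which share their library and are not independent replicates. The share of genes within 1.5-fold was 86.6% between A and B, 85.8% between A and C and 81.8% between B and C. All 3 cultures were within 1.5-fold for 8184 genes (70.6%) and within 2-fold for 10661 (91.9%), and 59 genes differed 4-fold or more. The count within 1.5-fold was 8178 with median ratio scaling but 2313 after rescaling to equal sums. AY036118 and Rn18s-rs5 enter that sum, and their part in the lower count was not tested. No gene had identical values in any pair, and each library was counted as 1 sample.

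The median spread between cultures exceeded counting error at every level. The median CV was 15.2% over these genes, beside 4.94% expected from the recovered read numbers alone, and it was 15.1% with median ratio scaling and 31.7% after rescaling to equal sums. It fell from 24.5% at 0.5 to 1 RPKM, where counting gave 16.9%, to 13.6% at 10 to 30, where counting gave 3.72%. From 100 to 1000 RPKM it was 13.7% beside 1.43%, and above 1000 it was 16.8% beside 0.704%. The gap between both values widened with level. Reads from polymerase chain reaction are not independent molecules, so the true error of counting is larger.

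**Figure D3:**
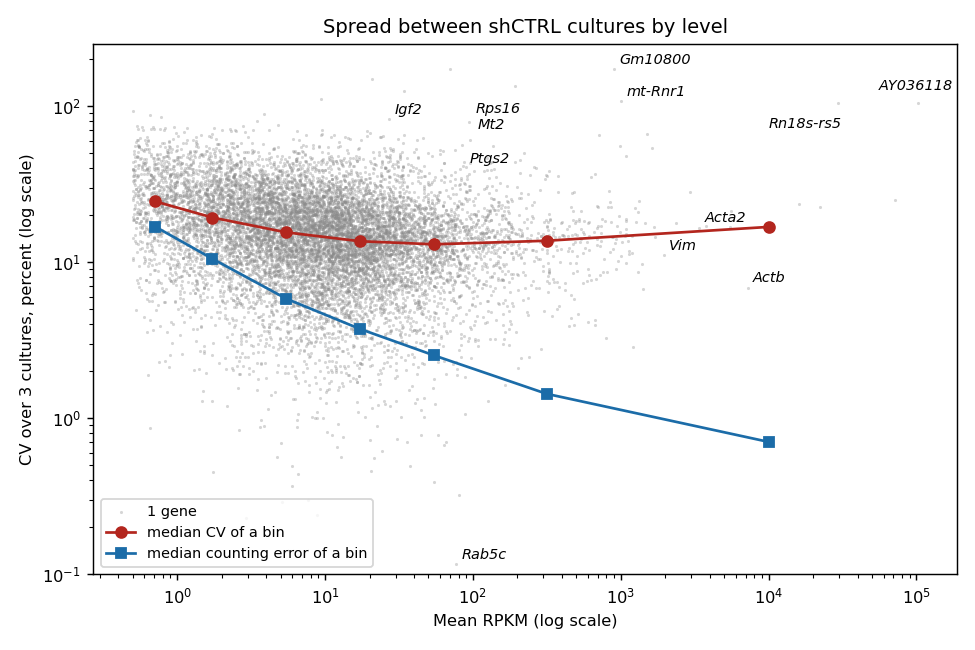
Coefficient of variation over the 3 shCTRL cultures against mean RPKM, both on log axes, with 1 point per gene of at least 0.5 RPKM and lines through the medians of level bins. The median CV is 24.5% in the lowest bin and 16.8% in the highest, while the median counting error falls from 16.9% to 0.704%; named points mark genes of the text.

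The genes with the largest spread were led by predicted and structural RNA genes. Among 5413 genes of at least 10 RPKM the 10 largest CVs belonged to Gm10800, Gm21738, Gm15564, Gm10801, Lars2, mt-Rnr1, Rn18s-rs5, AY036118, Igf2 and Rps16. Gm10800, a predicted gene, was at 2679 RPKM in culture A on 24225 reads and at 3.92 and 2.51 in cultures B and C on 28 and 42 reads. Gm21738 (209 and 0.831 RPKM in cultures A and B, with 0 reads in culture C) and Gm10801 (488, 53.1 and 35.1) were also high in culture A alone. Their means over 3 therefore rest on culture A.

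AY036118 was at 81158, 219009 and 7400.5 RPKM in cultures A, B and C, and Rn18s-rs5 at 22963, 62830.0 and 2177. The ratio of culture B to culture A was 2.70 and 2.74 for the pair, and that of culture B to culture C 29.6 and 28.9, so both moved together. The order B, A, C was shared by mt-Rnr1 (589.6, 2215 and 194), mt-Rnr2 (1315, 2599 and 624), Gm42418 (621, 1218 and 297), Gm15564 (37.8-fold higher in B than in C) and Lars2 (15.0, 82.5 and 4.44), but not by Gm26917 (3546, 3288 and 1995). Mt-Rnr1 and mt-Rnr2 are the mitochondrial ribosomal RNAs. On chromosome 17 Gm42418 (39846958 to 39848788, plus strand) spans AY036118 (39847113 to 39848035, minus strand), so it is not a separate locus. AY036118 and Rn18s-rs5 took 9.03%, 20.9% and 0.915% of the reads on listed genes, whereas nuclear coding genes took 82.7%, 71.2% and 91.9%. Ribosomal RNA had been removed with RiboMinus before the libraries were made, and the part of that step in these differences was not tested.

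Coding genes with a large spread differed in which culture they singled out. Igf2, a fetal growth factor, was at 12.2, 16.2 and 52.6 RPKM, high in culture C alone on 7052 reads. Rps16 was at 144, 9.14 and 128, low in culture B alone on 110 reads. The ribosomal protein list as a whole was not low in culture B relative to the median gene, on either scale. The metallothioneins Mt1 (64.7, 216 and 128) and Mt2 (36.9, 153 and 97.4), which bind zinc and copper, had culture A as the lowest on both scales and B as the highest on the deposited scale only. Serpina3n, a protease inhibitor of the acute phase, was at 4.11 RPKM in culture A and 4.63-fold above that in culture C, and its neighbour Serpina3g stood at 6.28, 18.8 and 27.4, both in the order C, B, A on either scale. Ptgs2, the inducible cyclooxygenase, was at 139, 70.2 and 45.8 and Has2, a hyaluronan synthase, at 15.9, 10.1 and 5.41, both highest in culture A on either scale. Mt1, Mt2, Serpina3n, Serpina3g, Ptgs2, Has2, Plk2 and Hist1h1d were picked for the plot after their values had been seen. Of the 60 largest CVs, 34 belonged to nuclear coding genes and 19 to small RNA classes.

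**Figure D4:**
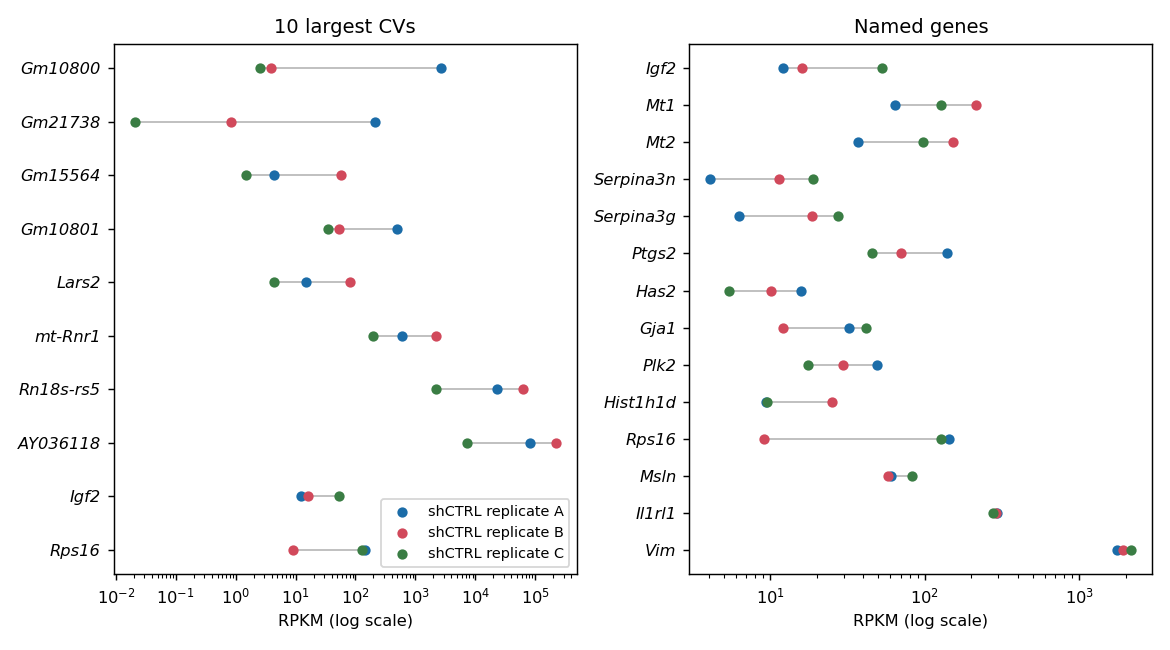
RPKM on a log axis in each of the 3 shCTRL cultures for the 10 genes with the largest coefficient of variation among genes of at least 10 RPKM (left) and for other genes of the text (right). Gm10800 is high in culture A only, Igf2 in culture C only and Rps16 is low in culture B only, while Il1rl1 spans 1.06-fold and Vim 1.25-fold.

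At the other end Rab5c, a GTPase of early endosomes, was at 77.2, 77.3 and 77.1 RPKM, a CV of 0.116% where counting alone would give 2.12%. Mob1a, Scp2 (54.5, 54.8 and 55.0), Camk2g, Erp44, Fbxw8, Alg3, Tex261, Ap1g1 and Fbln5 (63.2, 63.9 and 63.1) completed the 10 smallest. Each CV was below its own counting error, from 0.670% for Fbln5 downward. They are the lower tail of the spread over 5413 genes and are not shown to be steadier than other genes.

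On the deposited scale no culture was the highest or lowest throughout. Among the 5413 genes culture B was the highest for 2314, culture C for 1750 and culture A for 1349, and culture C was the lowest for 2459, culture A for 1531 and culture B for 1423. After rescaling to equal sums, an alternative added after the data were seen, culture C was the highest for 4749 and culture B the lowest for 5139. Genes at least 2-fold above both other cultures were rare, 6 in A, 10 in B and 6 in C. Genes at least 2-fold below both numbered 9, 39 and 33.

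Gene lists were set beside each other by the mean deviation of log2(RPKM + 0.1) of the listed members from the mean of the 3 cultures. The G2/M list was at -0.22, 0.42 and -0.19 in cultures A, B and C, with 23 of 26 members highest in B. The replication-dependent histones were at -0.18, 0.48 and -0.30, with 39 of 45 highest in B. The G1/S list was nearly level at -0.06, 0.09 and -0.03. Hist1h1d, a linker histone, was at 9.44, 25.1 and 9.59 RPKM, and Tpx2 at 3.60, 5.69 and 3.10. Hist1h1d was picked after its values had been seen, so it is an example and not evidence for the list difference. After rescaling to equal sums culture B stayed the highest for both genes, but for Tpx2 it was nearly level with culture C. By list mean, culture B was the highest in mitotic and histone RNA on the deposited scale, whereas culture C was after rescaling to equal sums. Relative to the median gene of each culture, culture B was the highest for both lists on either scale. No test was made over 3 libraries of 1 group.

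Other lists set other cultures apart. Cholesterol synthesis was at 0.24, -0.08 and -0.16, with 19 of 26 members highest in A, although culture C drew level after rescaling to equal sums. AP-1 and immediate early factors were at 0.22, -0.27 and 0.05, with 14 of 25 highest in A and 15 lowest in B. Their highest culture was C after rescaling to equal sums, as it was for the median gene. Receptor tyrosine kinases were at -0.01, -0.24 and 0.25, with 13 of 18 highest in C and 13 lowest in B. The collagens were at 0.05, -0.18 and 0.13. Ribosomal protein genes moved by less, 0.04, 0.12 and -0.16, but in step, with 68 of 80 highest in B and 68 lowest in C, signs that reversed after rescaling to equal sums. The cytoskeleton and cytokine receptor lists stayed within 0.06 of the mean in every culture.

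These deviations depend on how the libraries are set to a common scale. AY036118 and Rn18s-rs5 took different shares of the reads in the cultures, and their part in this was not tested. When each library was rescaled to an equal sum of RPKM, the median of all genes of at least 0.5 RPKM moved to 0.03, -0.42 and 0.42 in cultures A, B and C, from 0.01, 0.02 and 0.00 as deposited. On that scale the G2/M list was at -0.20, 0.02 and 0.19 and the histones at -0.16, 0.04 and 0.11, so culture B was above the median gene in both but no longer the highest culture. Ribosomal protein genes were at 0.06, -0.32 and 0.26, and the direction for cultures B and C flipped while their place relative to the median gene did not. Cholesterol synthesis was at 0.26, -0.52 and 0.27, which put culture C level with A. The receptor tyrosine kinases (0.00, -0.67 and 0.67), the AP-1 list (0.23, -0.69 and 0.46) and the collagens (0.07, -0.62 and 0.55) had culture B as the lowest and culture C as the highest. The median gene had the same places, so these do not set the lists apart. Relative to the median gene, culture A stayed the highest for AP-1 and cholesterol synthesis. Culture B stayed the lowest on that measure for AP-1, the collagens and the receptor tyrosine kinases.

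**Figure D5:**
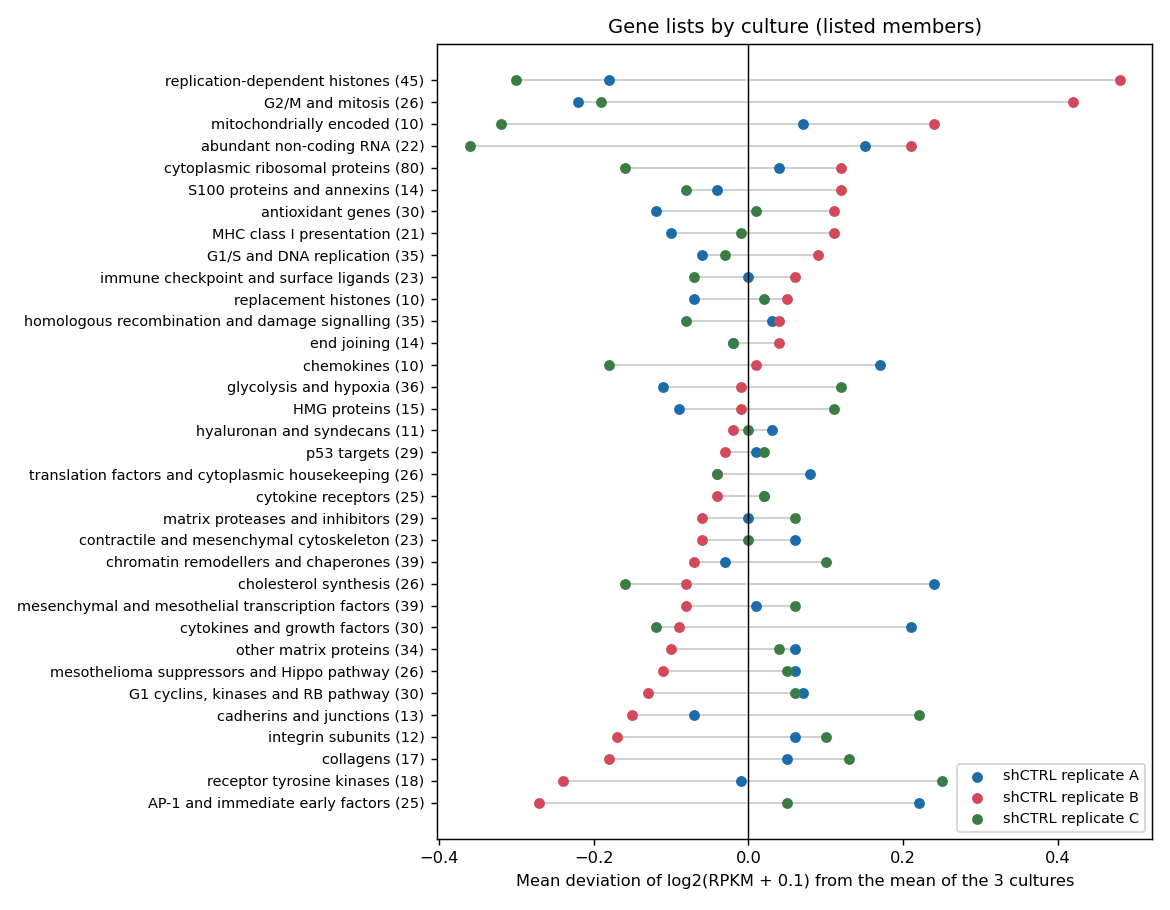
Mean deviation of log2(RPKM + 0.1) from the mean of the 3 cultures, for every gene list with at least 10 listed members, with 1 point per shCTRL culture and the number of listed members beside each name. On the deposited scale the replication-dependent histones (0.48) and the G2/M list (0.42) have culture B furthest above the mean. After rescaling to equal sums culture C is the highest for both (0.11 and 0.19), but below its median gene (0.42).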

How the data were processed

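Total RNA of the 3 shCTRL and the 3 other libraries was depleted of ribosomal RNA with RiboMinus and prepared with the TruSeq RNA kit, per the labels' protocols. The submitters' processing notes name Trimmomatic 0.32, STAR 2.5.3a, featureCounts, edgeR and the mm10/GRCm38 genome; the sources used here do not state their options, the strand setting, the annotation or the gene filter. The deposited values are log2 RPKM computed by the authors, 1 column per library; 2 was raised to each value, and means and SDs were taken on that linear scale. Each step between deposited values was found to be a whole read once 0.25 reads added to each value were allowed for: with library sizes fitted on 1610 genes of 1 transcript, a gene length made all 6 values whole within 0.02 reads for 12132 of 12134 genes and for 0 of 500 genes with wrong sizes. Of these lengths 21.7% lay within 1% of the GENCODE M21 exonic length, so they are uncertain, and recovered reads and counting errors rest on them. The effective library sizes (13699994, 10871390 and 25560027) were 0.989, 0.845 and 1.091 of the reads on listed genes, so the deposited scale includes a factor between libraries. All 6 columns served this step only.

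With 1 group there was no test and no p-value. The CV was set beside the counting error of the recovered reads. Agreement used genes of at least 0.5 RPKM and a pseudocount of 0.1, and spread lists used at least 10 RPKM. Symbols were matched to GENCODE M21 (11905) or RefSeq (163), and 66 had no match. Members and gene lists were chosen with earlier results of these data known. Genes were named by this rule: the markers, the 10 highest genes and 20 highest coding genes, the 4 highest of each list with members under 1 RPKM or without a row, and the 10 largest and smallest CVs; other genes named were chosen after their values were seen. Alternatives were other scalings, averages, filters and pseudocounts, each replicate left out, and other motif windows. Python 3.11.15, numpy 2.4.6 and pandas 2.3.3 were used. The chromatin accessibility and break-mapping experiments of the series were not analysed here. A few genes that the naming rule would include are not reported here.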

Additional observations from a re-analysis of the deposited data

How the results depend on the processing

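The counts of expressed genes, the members of the 100 highest genes and the shares in the highest genes kept within 1.5 times or 1 SD of the values above under scaling by the sum of recovered reads and under the median or geometric mean. For levels in this section, rescaling to equal sums used a larger common sum than above, which is a change of unit. Msln averaged 119.7 in that unit, beside 63.7, 43.8 and 114 in cultures A, B and C on the scale above. In that unit 1054 genes stood at 100 or more (1775 for coding genes alone). These are not counts in RPKM and cannot be set beside the 593 genes of the deposited scale. Rescaling to equal sums also gave a median CV of 31.7%, 2313 genes within 1.5-fold and 6 of the 10 largest-spread genes in common. With coding genes alone, an alternative added after the data were seen, 6 were also in common. Coding genes alone gave 9.48% and 30.1% of the sum in the 10 and 100 highest. A minimum of 5 RPKM gave a mean r over the pairs of cultures of 0.963. A pseudocount of 1 gave a mean r of 0.979 and a median CV of 12.7%. Median ratio scaling left the median CV at 15.1%, 8178 genes within 1.5-fold and 10 of the 10 largest-spread genes. TATAAA fell to 5.95% in the 50-base window, beside 1.52% of all promoters. The pyrimidine run came to 26.8% for the 250 highest genes, beside 24.5% of all. In the whole window it came to 100.0% for the 100 highest and 98.3% of all. Leaving out each replicate gave r from 0.973 to 0.979, a median CV from 10.9% to 14.8%, 592 to 605 genes at 100 RPKM or more, shares in the 10 highest genes from 33.4% without replicate B to 47.7%, and 6 of the 10 largest-spread genes in each case. Of 311 list medians under the alternatives 221 moved by less than 1 SD, and of 114 levels of named genes 92 did. These totals include the levels in the other unit, where every list median moved by more. No paired analysis was possible because only 1 group was used and its replicate letters pair nothing. Apart from that change of unit, the cause of these shifts was not tested. A pair of libraries remains when 1 is left out, and depth limits genes under 1 RPKM most.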

Other observations

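Ctgf, a secreted matrix protein and YAP target, stood at 21.4, 4.85 and 2.11 RPKM in cultures A, B and C, and its mean of 9.44 left it just outside the list of largest spread. Cyr61, its homologue, stood at 179, 104 and 88.2 RPKM, and Yap1 at 25.6, 16.1 and 30.5. These genes were named after their values were seen. Culture A was the highest for Ctgf and Cyr61, also after rescaling to equal sums, and culture C for Yap1.

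Among genes of the p53 pathway, Trp53 and its target Cdkn1a, at 3.68, 2.65 and 7.24 RPKM, shared the order C, A, B. Ccng1, another target, stood at 94.9, 103 and 72.9 RPKM and had culture C as the lowest, or the highest after rescaling to equal sums. The p53 target list as a whole was at 0.01, -0.03 and 0.02 on the log2 deviation scale.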
